A study of Mus musculus with 8 samples.

Results

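The genes described here are 9 genes whose products define cartilage cells, measured in the RNA of mesenchymal stem/progenitor cells (MSPCs) of mouse bone marrow. They were chosen by symbol, and their rows were found by Ensembl identifier without its version among the 52636 genes of the count table. The set comprises 3 transcription factors (Sox9, Sox5 and Sox6) and 6 components of the cartilage matrix (Col2a1, Acan, Comp, Matn3, Snorc and Hapln1). All 9 were matched. Of these, 5 had a count in at least 1 library and 4 were listed at 0 in all 8 libraries.

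The study asked whether the bone marrow niche changes when hematopoietic progenitors lose the chemokine receptor CXCR4. RNA was sequenced from MSPCs of 4 control (CTR) and 4 conditional knockout (cKO) mice, and the labels call the libraries of a group biological replicates. CTR mice were Flk2-cre+ Cxcr4fl/+, and cKO mice were Flk2-cre+ Cxcr4fl/fl. Both groups are C57BL/6, both carry the Cre transgene, and CTR mice have 1 floxed allele as well, so that neither group is free of recombination. The transgene acts in multipotent progenitors and the blood cells that arise from them, and not in MSPCs. The labels give an age of 6 weeks for every mouse, whereas the methods give an older and wider range for the mice of the study. MSPCs were sorted as cells without CD45, Ter119, CD31 and CD144 and with PDGFRα and GFP expressed from the Kitl locus.

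Total counts per library ranged from 31047344 to 38216877. The sorted cells carried the labelled identity: all 8 MSPC identity genes had counts in every library, and Cxcl12, the chemokine that retains hematopoietic cells in the marrow, had from 1294897 to 1649629 counts. Among hematopoietic genes, Cd3e was listed at 0 in every library, and Ptprc, which encodes the CD45 used for depletion, had from 0 to 32 counts. Endothelial genes summed to between 3.54 and 8.24 CPM (counts per 1000000, after TMM scaling of library sizes). Each title ends in a number that the labels do not explain. They lie between 26 and 32 in the libraries numbered 2 and 4 of both genotypes, and between 67 and 86 in those numbered 1 and 3, so that each title number group holds 2 CTR and 2 cKO libraries.

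Chondrocytes arise from mesenchymal progenitors and secrete a matrix of type II collagen fibrils filled with the proteoglycan aggrecan. SOX9 is the master regulator of this fate, and SOX5 and SOX6 bind beside it on the enhancers of matrix genes and raise their transcription. In the skeleton, SOX9 also marks progenitors that give rise to bone and marrow stroma, and COMP is made by several connective tissues, so that neither gene alone marks a chondrocyte.

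Comp at a mean of 68.2 TPM and Sox9 at 21.6 TPM were the highest (TPM, counts divided by exon length and scaled to a fixed sum, is used here for levels between genes), Col2a1 and Sox5 lay at 1.46 and 1.25 TPM, and Sox6 at 0.188 TPM. Acan, Matn3, Snorc and Hapln1 had no count. By mean TPM over the 8 libraries, Comp ranked 2368 among the 25681 genes with a count, Sox9 ranked 6061, Col2a1 13988, Sox5 14399 and Sox6 20533. The level of Comp exceeded that of Sox9 in 8 of 8 libraries, with a ratio of TPM from 1.79 to 11.3, and the level of Sox9 exceeded that of Col2a1 in 8 of 8, with a ratio from 4.90 to 68.2. Col2a1 and Sox5 were neighbors that did not differ beyond their spread, since Col2a1 was higher in 6 of 8 libraries with a ratio from 0.246 to 1.86. The level of Sox5 exceeded that of Sox6 in 8 of 8 libraries.

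**Figure D1:**
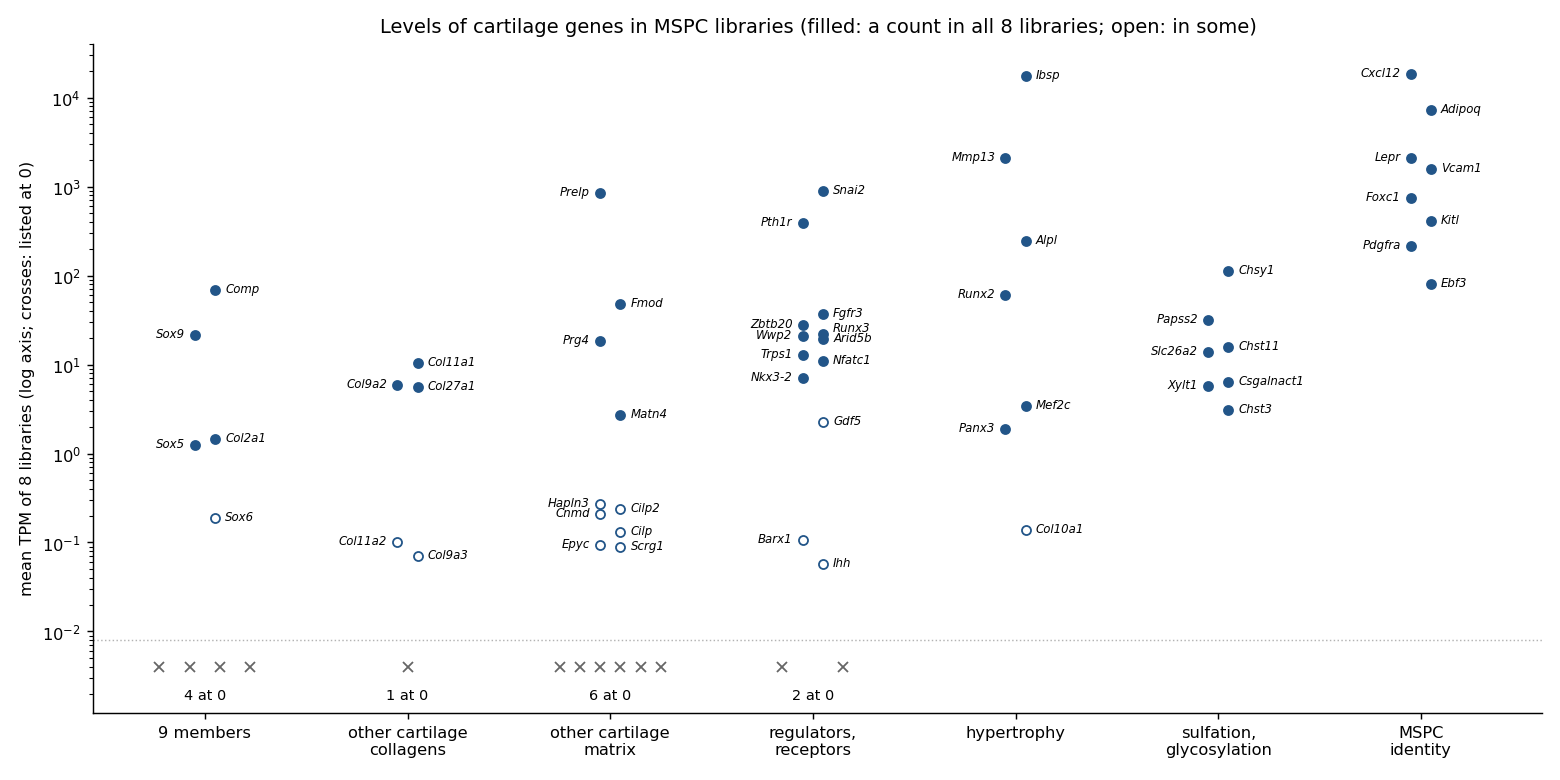
Mean TPM over 8 libraries (log axis) of the 9 chondrocyte genes, of the other cartilage genes by list and of MSPC identity genes, with filled points for genes with a count in every library, open points for genes with a count in some, and crosses for genes listed at 0. The 4 matrix genes Acan, Matn3, Snorc and Hapln1 are among the crosses, whereas Comp lies at 68.2 and Sox9 at 21.6 TPM.

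The 4 genes at 0 encode proteins of the cartilage matrix and the chondrocyte surface. Acan (ENSMUSG00000030607.7, chromosome 7 of GRCm38, 79053483 to 79115099) encodes aggrecan, the proteoglycan that gives cartilage its resistance to load. Hapln1 (ENSMUSG00000021613.9, chromosome 13, 89539796 to 89611652) encodes the link protein that fastens aggrecan to hyaluronan. Matn3 (ENSMUSG00000020583.4, chromosome 12, 8947929 to 8972028) encodes matrilin-3, an adaptor between collagen fibrils and proteoglycans. Snorc (ENSMUSG00000026258.5, chromosome 1, 87470271 to 87475482) encodes a small transmembrane proteoglycan of chondrocytes. Each was listed at 0 in 8 of 8 libraries, in both genotypes and both title number groups. By counting error alone, a count of 0 allows up to 3 counts, which is between 0.0781 and 0.0972 CPM in a single library. On the scale per length, the limit in a library was at most 0.0434 TPM for Acan, 0.0549 TPM for Hapln1, 0.108 TPM for Matn3 and 0.449 TPM for Snorc. These limits cover counting error only. A count of 0 in all libraries was common in the table, being found for 6611 of 21819 protein-coding genes (30.3%). Gm8546, on the opposite strand of Hapln1, had 3 to 21 counts per library, and whether strand was used in counting is not stated in the sources used here.

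Sox9 (ENSMUSG00000000567.5, chromosome 11 of GRCm38, 112782224 to 112787760) encodes the regulator that starts chondrogenesis. It had 42.1, 12.2, 17.5 and 22.1 CPM in CTR1 to CTR4. In cKO1 to cKO4 it had 38.1, 16.2, 32.7 and 32.2 CPM. The lowest value of each genotype came from the libraries numbered 2, the highest from those numbered 1, and the genotypes overlapped across most of their range. CTR MSPCs averaged 23.5 ± 13.0 CPM and cKO MSPCs 29.8 ± 9.47 CPM (SD, n = 4 each). The log2 fold change of cKO over CTR was 0.34 (standard error 0.37, 95% interval from -0.49 to 1.18, adjusted p = 1.00 by the quasi-likelihood test of edgeR, with Benjamini-Hochberg correction over all genes tested). The estimate was 0.79 without CTR1 (95% interval from 0.09 to 1.49, unadjusted p = 0.0303, adjusted p = 1.00 by edgeR) and 0.13 without CTR2. With 400 to 1298 counts per library, counting error alone would give a coefficient of variation of 3.33%, whereas the 8 libraries varied by 41.6%.

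Sox5 (ENSMUSG00000041540.16, chromosome 6, 143828425 to 144781977) encodes a SOX protein without a transactivation domain that works as a partner of SOX9. Its values were 8.10, 4.30, 5.20 and 4.58 CPM in CTR1 to CTR4. In cKO1 to cKO4 they were 3.05, 7.26, 5.21 and 5.08 CPM. The highest value was in CTR1 and the lowest in cKO1, and the other 6 libraries lay between 4.30 and 7.26 CPM. The log2 fold change was -0.11 (standard error 0.34, 95% interval from -0.87 to 0.65, adjusted p = 1.00 by edgeR's quasi-likelihood test), and it turned positive without CTR1 (0.14) or cKO1 (0.08). Antisense and intronic genes lie within Sox5, of which Sox5os1 had up to 32 and Gm44068 up to 28 counts in a library.

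Sox6 (ENSMUSG00000051910.13, chromosome 7, 115470872 to 116038796) encodes a close relative of SOX5 with overlapping function. It had 3, 39, 77 and 15 counts in CTR1 to CTR4. In cKO1 to cKO4 it had 0, 22, 32 and 38 counts. The 2 lowest counts came from the 2 libraries that were highest in Sox9, CTR1 and cKO1. Because of the 0 in cKO1, Sox6 did not pass the requirement of a count above 0 in every library, and its test comes from a fit of all 25681 genes with a count. The log2 fold change was -0.64 with a standard error of 1.21 (95% interval from -3.34 to 2.05, adjusted p = 1.00 by edgeR's quasi-likelihood test), so that a change of 2.05 on the log2 scale in either direction would have been within the interval. Without CTR3 the estimate was 0.21.

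Col2a1 (ENSMUSG00000022483.16, chromosome 15, 97975602 to 98004695) encodes type II collagen, the main fibril of cartilage and a direct target of the SOX trio. It had 45, 169, 158 and 27 counts in CTR1 to CTR4, or 1.46, 5.16, 4.89 and 0.724 CPM. In cKO1 to cKO4 it had 84, 261, 168 and 175 counts, or 2.56, 7.37, 5.15 and 4.56 CPM. CTR4, CTR1 and cKO1 were the 3 lowest libraries, and the other 5 lay between 4.56 and 7.37 CPM in both genotypes. CTR MSPCs averaged 3.06 ± 2.29 CPM and cKO MSPCs 4.91 ± 1.98 CPM (SD, n = 4 each), with a log2 fold change of 0.68 (standard error 0.60, 95% interval from -0.65 to 2.02, adjusted p = 1.00 by edgeR's quasi-likelihood test). The estimate was 0.36 without CTR4 and 1.06 without CTR2. Among the 4 genes tested, Col2a1 had the largest spread, with a highest value 10.2 times its lowest and a coefficient of variation of 55.6%, against 8.58% from counting.

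Comp (ENSMUSG00000031849.9, chromosome 8, 70373558 to 70382066) encodes cartilage oligomeric matrix protein, which binds collagen fibrils and is made in tendon and other connective tissue as well as in cartilage. It had 54.0, 98.9, 45.1 and 94.8 CPM in CTR1 to CTR4. In cKO1 to cKO4 it had 55.6, 31.3, 49.2 and 51.1 CPM. CTR2 and CTR4 stood above all other libraries, cKO2 stood below them, and the remaining 5 lay between 45.1 and 55.6 CPM, so that the genotypes overlapped. CTR MSPCs averaged 73.2 ± 27.6 CPM and cKO MSPCs 46.8 ± 10.7 CPM (SD, n = 4 each). The log2 fold change was -0.65 (standard error 0.27, 95% interval from -1.25 to -0.04, unadjusted p = 0.0387 and adjusted p = 1.00 by edgeR's quasi-likelihood test), and leaving out any single library gave estimates between -0.82 and -0.47. The unadjusted p was 0.122 without CTR2 and 0.117 without CTR4, the 2 libraries with the high values, and also above 0.05 without cKO2, cKO3 or cKO4.

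**Figure D2:**
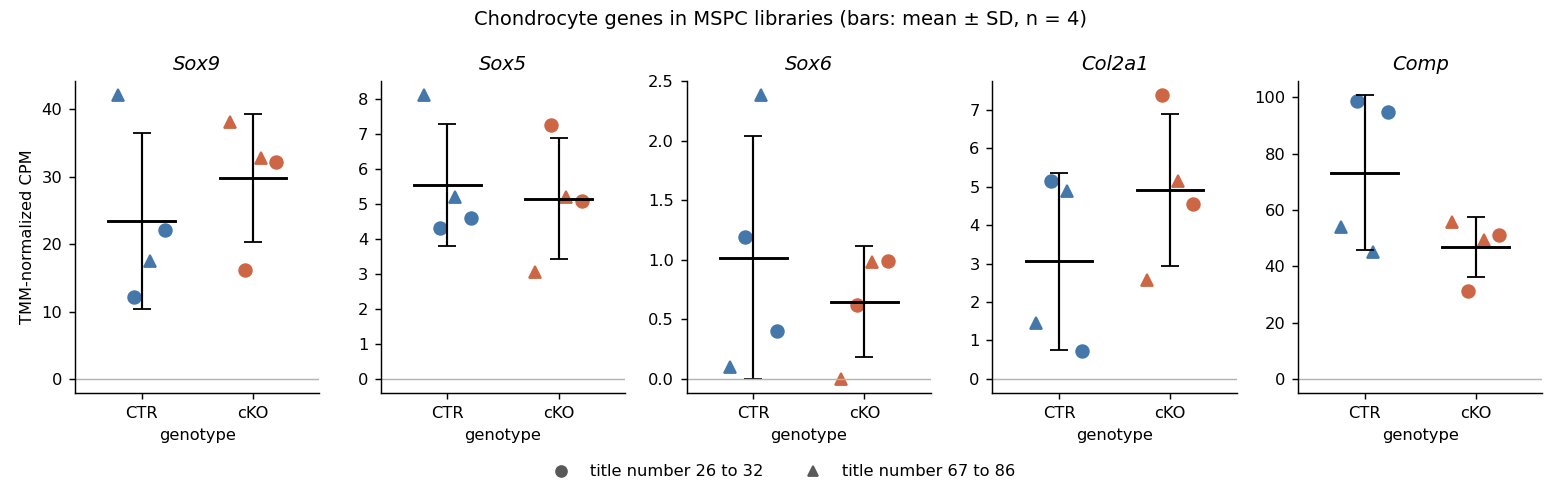
TMM-normalized CPM (vertical axis, 1 scale per gene) of the 5 genes with counts, by genotype, with 1 point per library, circles for title numbers 26 to 32, triangles for 67 to 86, and bars for the mean ± SD of 4 libraries. The genotypes overlap for all 5 genes, and the 2 CTR circles of Comp, at 98.9 and 94.8 CPM, lie above the other 6 libraries.

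None of the 4 genes tested passed an adjusted p of 0.05 between genotypes. The background was the same, with 0 of 14598 genes called (0%), 638 (4.37%) at an unadjusted p under 0.05 and 390 (2.67%) whose libraries did not overlap between genotypes in CPM. Comp was the only 1 of the 4 at an unadjusted p under 0.05, and none of the 5 genes with counts had genotypes that did not overlap. DESeq2's likelihood ratio test called 22 genes, none of them among the 4. Of the 4, 2 had a higher and 2 a lower estimate in cKO, with a median log2 fold change of 0.12 beside -0.01 over all genes tested. In two-sided exact permutation tests of mean log2 CPM over the 70 assignments of libraries to groups, the 5 unadjusted p-values were 0.229 for Comp, 0.286 for Col2a1, 0.371 for Sox9, 0.629 for Sox6 and 0.771 for Sox5, where 0.0286 is the smallest p that 4 libraries against 4 allow. The libraries are of sorted bulk RNA, in which fewer cells that express a gene and less RNA per cell cannot be told apart.

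The title number groups were compared in the same way, with genotype as a term in the fit. Here 2 of 14598 genes were called (0.0137%), 1690 (11.6%) had an unadjusted p under 0.05 and 1001 (6.86%) did not overlap. No chondrocyte gene was called, none was at an unadjusted p under 0.05 in edgeR with all libraries, and all overlapped. Sox9 had 32.6 ± 10.8 CPM in the libraries with title numbers 67 to 86 and 20.7 ± 8.69 CPM in those with 26 to 32 (SD, n = 4 each), a log2 fold change of 0.67 (standard error 0.33, 95% interval from -0.07 to 1.41, adjusted p = 0.466 by edgeR's quasi-likelihood test). Its unadjusted p was 0.0702 here and 0.0314 with DESeq2's likelihood ratio test (adjusted p = 0.309), and leaving out 1 library gave estimates from 0.35 without CTR1 to 0.92 without cKO4, with an unadjusted edgeR p of 0.0240 without CTR3 and 0.0263 without cKO4. For Comp, leaving out cKO2 gave -0.58 (unadjusted p = 0.0252, adjusted p = 0.528 by edgeR). The log2 fold changes of Comp, Col2a1, Sox6 and Sox5 were -0.31, -0.26, -0.03 (without the filter) and 0.0019, with adjusted p-values from 0.692 to 0.999.

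Within the title number groups the genotype difference of Comp took different sizes. For title numbers 26 to 32, Comp had a mean of 96.8 CPM in CTR and 41.2 CPM in cKO, a difference of -1.27 in mean log2 CPM, and the 2 CTR libraries lay above the 2 cKO libraries. For 67 to 86 the means were 49.6 CPM in CTR and 52.4 CPM in cKO, a difference of 0.08 with overlapping libraries. The interaction of genotype and title number group, a fit added after the data were seen, was 1.31 for Comp (standard error 0.32, unadjusted p = 0.00372, adjusted p = 1.00 by edgeR's quasi-likelihood test), whereas 500 of 14598 genes (3.43%) had an unadjusted p under 0.05 in that fit and 0 had an adjusted one. Sox5 had opposite signs in the title number groups, with 0.45 for 26 to 32 and -0.70 for 67 to 86, and an interaction of -1.16 (standard error 0.64, adjusted p = 1.00 by edgeR). For 26 to 32, the 2 cKO libraries of Sox5 lay above the 2 CTR libraries. How many of all genes separate 2 libraries from 2 was not computed, so that neither the separation of Comp nor that of Sox5 is read as a result. Sox9 was higher in cKO by 0.47 and 0.38 in mean log2 CPM and Col2a1 by 1.54 and 0.43, in 26 to 32 and 67 to 86 respectively, with overlapping libraries in each group. The difference of Sox6 was 0.16 for 26 to 32 and -1.32 for 67 to 86.

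**Figure D3:**
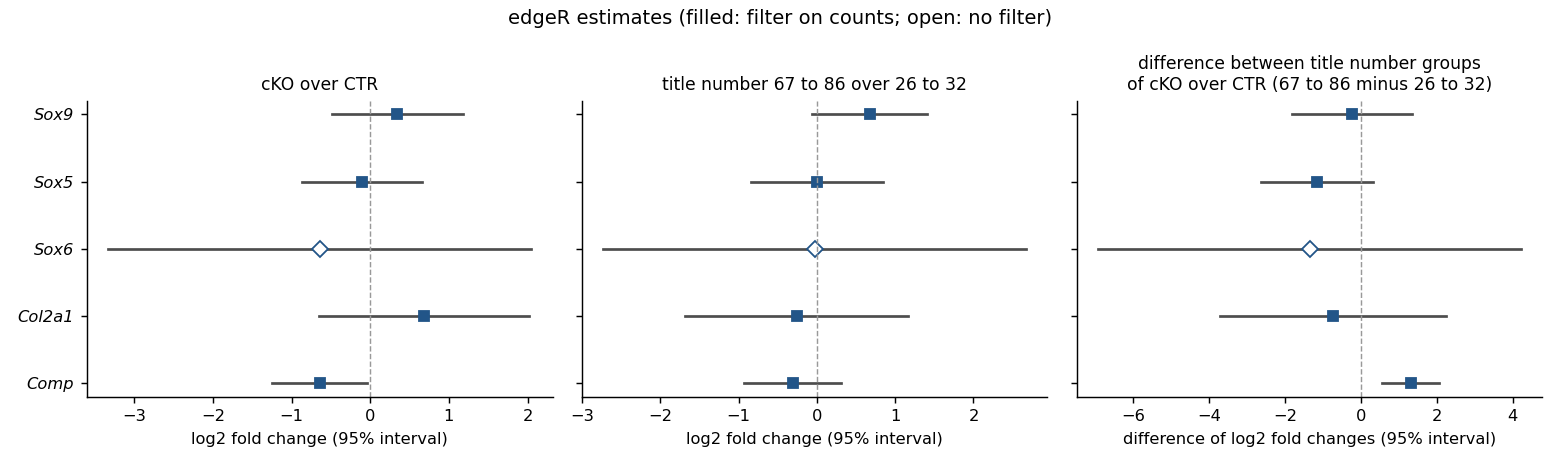
Estimates of edgeR with 95% intervals (horizontal axis, log2 scale) for the 5 genes with counts, for cKO over CTR, for title numbers 67 to 86 over 26 to 32 and for the difference between title number groups in the genotype effect, with open diamonds for Sox6 from the fit without a filter. Apart from Comp in the genotype comparison and in the interaction, all intervals include 0, and adjusted over all genes Comp did not pass either.

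Markers of other cell types were set beside Comp. Of 6 genes of mural cells, the pericytes and smooth muscle of vessels, Rgs5 and Myh11 were highest in CTR2 and CTR4, the libraries highest in Comp, and the other 4 were not. Rgs5, a pericyte regulator of G protein signaling, had 22.5 CPM in CTR2 and 28.7 CPM in CTR4 and from 3.14 to 14.7 CPM in the other 6. Myh11, the smooth muscle myosin heavy chain, had 13.8 and 18.9 CPM in CTR2 and CTR4. It had 8.11 and 12.3 CPM in cKO2 and cKO4, which are in the same title number group as CTR2 and CTR4. In the other title number group it had 3.79 and 2.63 CPM in CTR1 and CTR3 and no count in cKO1 and cKO3. The title number groups thus did not overlap in Myh11, and cKO2, the library lowest in Comp, was not lowest in Myh11. Among the other 4 genes, Tagln, an actin-binding protein of smooth muscle, was highest in cKO4 (11.9 CPM, beside 11.3 in CTR2 and 10.1 in CTR4). Mcam was highest in cKO1 (3.63 CPM), Acta2 had 2.75 CPM in CTR2 and its highest value in CTR4, and Cnn1 had a count in cKO2 alone, the library lowest in Comp. Of the 6 genes 3 were tested and 0 were called, with a log2 fold change of cKO over CTR of -1.20 for Rgs5 (standard error 0.51, adjusted p = 1.00 by edgeR). Between title number groups 0 were called as well, but the estimate for Rgs5 was larger. It was -1.49 for the group of CTR1, CTR3, cKO1 and cKO3 over the other group (standard error 0.23, unadjusted p = 0.000132, adjusted p = 0.111 by edgeR). The summed level was 52.7 CPM in CTR2, 68.0 CPM in CTR4 and 13.3 to 44.7 CPM in the other 6 libraries, and Rgs5 and Myh11 made up most of it in CTR2 and CTR4. Of 9 tendon and periosteum genes, Thbs4 and Kera were listed at 0 in all 8 libraries and 3 others in some. Their sum was lowest in CTR2, at 5233 CPM, and was 7161 CPM in CTR4 and 5988 to 9050 CPM in the other 6 libraries, but nearly all of it was Tnc (5155 CPM in CTR2). Postn, a matricellular protein of periosteum, had 26.1 CPM in CTR2 and 26.4 CPM in CTR4, 30.8 CPM in CTR1 and 10.2 to 17.0 CPM in the other 5. Fmod had 45.0 CPM in CTR2, its highest value of 67.7 CPM in CTR4 and its lowest of 17.0 CPM in cKO2. Mkx, in contrast, had 7.17 CPM in CTR2, 12.7 CPM in CTR4, its highest value of 20.1 CPM in cKO1 and its lowest of 5.30 CPM in cKO3. The part of mural or tendon cells in the Comp values was not tested.

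**Figure D4:**
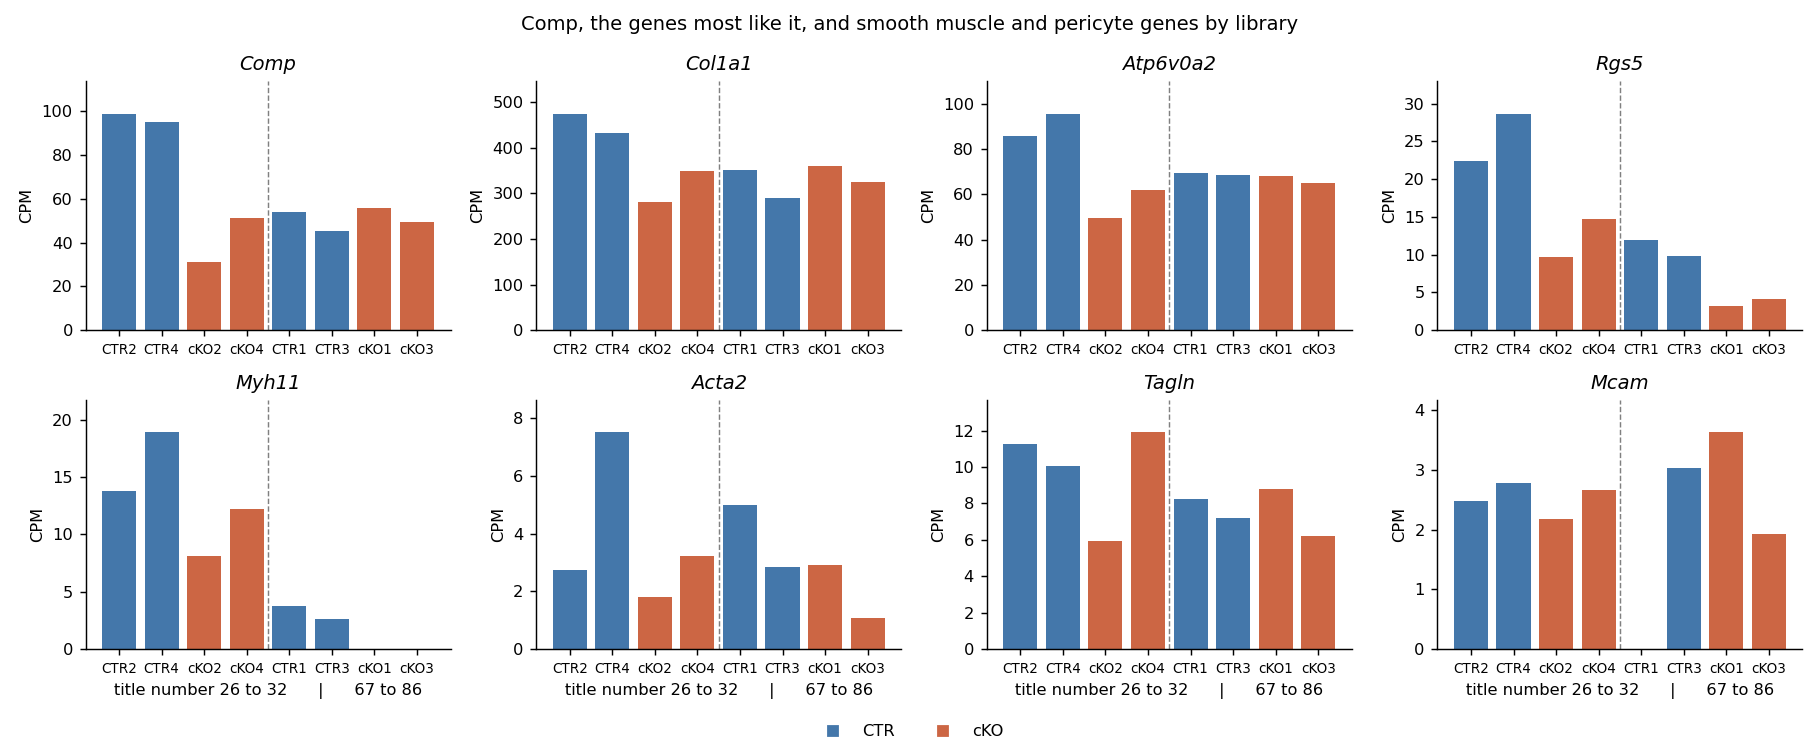
CPM by library (bars, each axis from 0) of Comp, of Col1a1 and Atp6v0a2, whose pattern over the libraries was most like it, and of 5 of the 6 mural cell genes (Cnn1, with a count in 1 library, is not drawn), with the title number groups separated by a dashed line. CTR2 and CTR4 are highest in Comp, Col1a1, Atp6v0a2, Rgs5 and Myh11, whereas Tagln is highest in cKO4, Mcam in cKO1 and Acta2 in CTR4 only.

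Whether the chondrocyte genes move together was read from their pairs across libraries, and the highest Pearson r of any pair was 0.08. Pairs were formed from the 4 genes with at least 10 counts in every library, Sox9, Sox5, Col2a1 and Comp, and log2 CPM was correlated over the 8 libraries. Of the 6 pairs, 4 had a negative and 2 a positive Pearson r, with a median of -0.29 beside -0.00145 over the 84857878 pairs of the 13028 genes at this depth. No pair reached 0.7 in size, which 6.15% of all pairs did. Tests below are two-sided exact permutation tests over all pairings of the 8 libraries, with Benjamini-Hochberg adjustment over the 6 pairs.

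Sox9 and Col2a1, regulator and target in cartilage, had a Pearson r of -0.39 (permutation p = 0.340, adjusted 0.679) and a Spearman rho of -0.64 (permutation p = 0.0962, adjusted 0.289). The libraries highest in Sox9, CTR1 and cKO1, were among the 3 lowest in Col2a1, and CTR2 and cKO2, lowest in Sox9, were the 2 highest in Col2a1. Without CTR1 and CTR4, the 2 libraries farthest from the median of Col2a1, r was -0.64. It was -0.64 within the 4 CTR and -0.84 within the 4 cKO libraries, and -0.30 and -0.71 within title numbers 26 to 32 and 67 to 86. The sign was negative in each subset, and the test over 8 libraries did not pass.

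Sox9 and its partner Sox5 had an r of 0.01 and a rho of 0.19 (permutation p = 0.991 and 0.665, adjusted 0.991 and 0.844), with 0.91 within CTR and -0.85 within cKO libraries and 0.11 without CTR2 and cKO2. In CTR1 both were at their highest, whereas in cKO1 Sox9 was high and Sox5 at its lowest. Col2a1 and Sox5 had an r of 0.08 and a rho of 0.17 (permutation p = 0.843 and 0.703, adjusted 0.991 and 0.844). Without CTR1 and CTR4 this r was 0.94 over the 6 other libraries, so that the value over 8 rests on those 2. Within title numbers 26 to 32 it was 0.51 and within 67 to 86 it was -0.32. Within the CTR libraries it was -0.26 and within the cKO libraries 0.996.

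Comp was negatively correlated with Col2a1, with an r of -0.55 and a rho of -0.45 (permutation p = 0.149 and 0.267, adjusted 0.669 and 0.535), and the r was -0.34 without CTR1 and CTR4. It was -0.61 within title numbers 26 to 32 and -0.79 within 67 to 86. Comp and Sox5 had an r of -0.47 and a rho of -0.67 (permutation p = 0.223 and 0.0831, adjusted 0.669 and 0.289), and -0.90 without CTR1 and cKO1, with -0.95 and -0.19 within the title number groups. Comp and Sox9 had an r of -0.18 and a rho of 0.05 (permutation p = 0.648 and 0.935, adjusted 0.972 and 0.935), with -0.17 without CTR2 and cKO2, and -0.19 and 0.92 within the title number groups. Within CTR and within cKO libraries, the r of Comp was -0.25 and -0.84 with Col2a1, -0.64 and -0.84 with Sox5, and -0.44 and 0.997 with Sox9. Each value within a group of 4 libraries is a description of 4 points. Sox6, added after the data were seen and resting on 0 to 77 counts, had an r of 0.52 with Col2a1, -0.64 with Sox9, 0.22 with Sox5 and -0.05 with Comp over the 8 libraries.

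**Figure D5:**
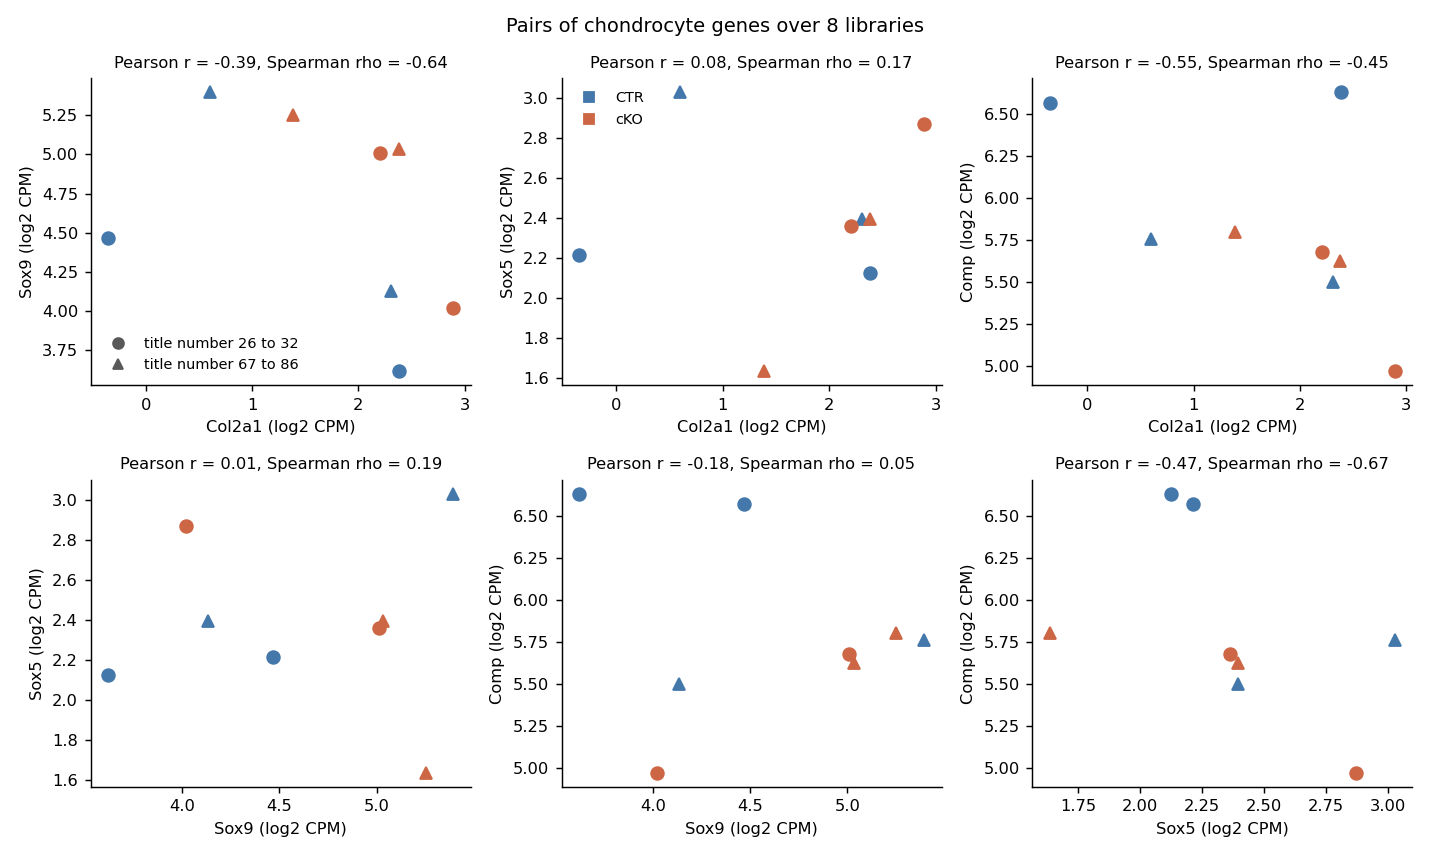
Log2 CPM of the 6 pairs among Col2a1, Sox9, Sox5 and Comp, with 1 point per library, blue for CTR and orange for cKO, circles for title numbers 26 to 32 and triangles for 67 to 86. Points run downward for Col2a1 with Sox9, Col2a1 with Comp and Sox5 with Comp, at an r of -0.39, -0.55 and -0.47, and the highest r of the 6 panels is 0.08.

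For each of the 4 genes, the 2 genes with the most similar pattern were taken from the 13019 others with a mean of at least 1 CPM, by Pearson r of log2 CPM over the 8 libraries. Over so few libraries some genes reach a high r with any pattern, so that these are descriptions. Col2a1 was followed most closely by Pdk4, which encodes a kinase that inhibits pyruvate dehydrogenase (r = 0.97), and by Nudt16 (r = 0.96), a nudix hydrolase. Pdk4 ranged from 65.6 CPM in CTR4 to 131.6 CPM in cKO2, the lowest and highest libraries of Col2a1. Sox9 was followed by Ftsj1, an RNA methyltransferase (r = 0.97), and Slc24a3, a sodium, potassium and calcium exchanger (r = 0.96). Sox5 was followed by 1110051M20Rik (r = 0.98) and by Camsap1, which binds microtubule minus ends (r = 0.95). Comp was followed by Col1a1, the type I collagen chain of bone, tendon and skin (r = 0.96), and by Atp6v0a2, a subunit of the vacuolar proton pump (r = 0.96). Col1a1 had 474.4 and 431.7 CPM in CTR2 and CTR4 and from 280.9 to 359.6 CPM in the other 6 libraries. An r of at least 0.9 was reached with Sox9 by 36 genes, with Col2a1 by 22, with Comp by 8 and with Sox5 by 7. No chondrocyte gene was among the 2 nearest genes of another.

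The wider cartilage program was read from 51 further genes in 5 lists. Over the 5 lists, 30 genes were tested, 12 had counts in some libraries and 9 were listed at 0 throughout. None of the 30 was called between genotypes or was at an unadjusted p under 0.05, with 12 estimates higher and 18 lower in cKO and a median log2 fold change of -0.07. Over all genes tested, 7145 estimates were higher and 7453 lower in cKO. Between title number groups 0 of the 30 were called and 6 had an unadjusted p under 0.05, beside 11.6% of all genes.

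Among the other cartilage collagens, 3 of 6 were tested: Col11a1 at a mean of 10.4 TPM, Col9a2 at 5.94 TPM and Col27a1 at 5.56 TPM. Types XI and IX collagen, to which Col11a1 and Col9a2 but not Col27a1 contribute, coat and nucleate type II fibrils. Each of the 3 genes tested had a higher mean TPM than Col2a1 itself (1.46 TPM). Col9a1, a partner chain of Col9a2, was listed at 0 in all 8 libraries, and Col9a3 had counts in 2 of them. The log2 fold changes of cKO over CTR were 0.44 for Col27a1 (standard error 0.21), -0.09 for Col11a1 (standard error 0.25) and -0.19 for Col9a2 (standard error 0.33), none called.

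Of 16 other matrix genes 4 were tested and 6 were listed at 0 in all libraries, namely Matn1, Chad, Ucma, Clec3a, Cytl1 and Susd5. The 3 highest were leucine-rich proteoglycans and lubricin, made in several connective tissues: Prelp at 844.7 TPM, Fmod at 47.9 TPM and Prg4 at 18.6 TPM. Their log2 fold changes were 0.12, -0.40 and -0.22 with standard errors of 0.13, 0.38 and 0.28. Of 15 regulators and receptors 10 were tested, led by Snai2, a repressor of epithelial genes (883.1 TPM), Pth1r, the receptor of parathyroid hormone and its related peptide (386.6 TPM), and Fgfr3, which restrains chondrocyte proliferation (37.1 TPM). Pthlh and Bmpr1b were listed at 0 throughout, and Ihh, which with Pthlh sets the pace of the growth plate, had a count in 1 library. The 10 estimates were split, with 5 higher and 5 lower in cKO.

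Of 7 genes of chondrocyte hypertrophy, the last stage before cartilage is replaced by bone, 6 were tested. The highest were Ibsp at 17401 TPM, Mmp13 at 2095 TPM and Alpl at 243.5 TPM, which osteoblast lineage cells express too. Col10a1, the collagen of hypertrophic chondrocytes, had counts in 2 of the 8 libraries and none in cKO. All 7 genes for sulfation and assembly of chondroitin chains were tested, led by Chsy1 at 111.5 TPM, Papss2 at 31.6 TPM and Chst11 at 15.7 TPM. Their median log2 fold change was -0.17, with 6 of the 7 estimates lower in cKO and 0 called. The estimates ran from -0.47 for Papss2 (standard error 0.22) to 0.01 for Xylt1 (standard error 0.28). Over all 14598 genes tested, 7453 estimates were lower in cKO. Whether these 7 genes fall together was not tested.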

How the data were processed

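The labels and methods state that MSPCs were sorted, that poly(A) RNA was sequenced, and that the authors aligned trimmed reads with HISAT2 to GRCm38 (mm10), counted them per gene with HTSeq-count and deposited raw counts without normalization. Versions are not given in the sources used here. The authors' model corrected for a batch that neither labels nor methods identify. Gene names, positions and exon lengths came from GENCODE M21 on GRCm38.

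After TMM scaling, genes at 0 in any library were set aside, and the quasi-likelihood test of edgeR 4.0.16 was run on the remaining 14598 in R 4.3.3, with p-values corrected by Benjamini-Hochberg and a threshold of 0.05. Log2 CPM used a prior count of 2. Exact permutation tests and correlations used Python 3.11.15 with scipy 1.17.1. Other scalings, filters, DESeq2 1.42.0, a replicate block, a title number group term and leaving out each library served as alternatives. The fits were tested on simulated data. The 9 genes and the lists were chosen with earlier results of these data known. Of each cartilage list, the 3 genes with the highest mean TPM are named, with any called. Genes named because they were at 0, Rgs5, Myh11, Acta2, Tagln, Mcam, Tnc, Postn, Mkx, S100b, Sox10, Foxd3, Cnn1, Thbs4, Kera, Col9a3, Ihh and Col10a1 were chosen after their values were seen. The p-values of edgeR and DESeq2 weigh a difference of means against the spread between these libraries. Those of the permutation tests compare the observed value with values from reassigned or re-paired libraries.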

Additional observations from a re-analysis of the deposited data

Results flagged for a closer look

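Sox6 had 0 counts in cKO1, against 22, 32 and 38 in cKO2 to cKO4. On the log2 CPM scale, the gap from cKO1 to the nearest cKO library was 0.850 of the whole range of the group, above the 95% critical value of Dixon's test for 4 samples. With 0 counts, the log2 value of cKO1 is set by the prior count of 2, and on the CPM scale the same gap was 0.628 of the range, below that critical value. Of the 20 groups of 4 libraries examined, chance alone flags about 1. CTR1, the other library high in Sox9, had 3 counts of Sox6.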

How the results depend on the processing

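No chondrocyte gene was called between genotypes or between title number groups under any alternative run, from other scalings and filters to DESeq2, and this count was 0 with each library left out. With the replicate number as a block, the log2 fold changes of cKO over CTR were 0.96 for Col2a1, 0.43 for Sox9, -0.11 for Sox5 and -0.59 for Comp, and 0 were called. In this order the standard errors were 0.49, 0.19, 0.41 and 0.30, and the unadjusted p-values by edgeR were 0.0925, 0.0609, 0.796 and 0.0964. Col2a1 was higher in each cKO library than in the CTR library of the same number, which was not the case for Sox9, and neither Sox5 nor Comp kept 1 direction. The main fit did not take the numbers as pairing the libraries. The correlations of deviations from the group means between libraries of the same number do not settle whether they do. These were positive but low, at 0.131, 0.176, 0.0844 and 0.0573. Of CTR libraries 1 to 4, those numbered 1, 2 and 3 correlated best with their own number. Across all genes, DESeq2's likelihood ratio test called 22 genes between genotypes (47 with the title number group) and 342 between title number groups, where edgeR called 0 and 2.

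Some directions turned. In mean log2 CPM within title numbers 26 to 32, cKO minus CTR was 0.45 for Sox5 and 0.16 for Sox6, and within 67 to 86 it was 0.083 for Comp. With each library left out, the log2 fold change of cKO over CTR ranged from -0.32 to 0.14 for Sox5 and from -1.02 to 0.21 for Sox6, and that of title numbers 67 to 86 over 26 to 32 from -0.77 to 0.28 for Col2a1, from -0.25 to 0.26 for Sox5 and from -1.48 to 0.49 for Sox6. Other estimates kept their sign and moved by over 1.5 times, between genotypes for Sox9 (0.13 to 0.79) and Col2a1 (0.36 to 1.06) and between title number groups for Sox9 (0.35 to 0.92) and Comp (-0.58 to -0.10). Without the filter that of Sox5 was -0.0027. None of these values was called.

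The median pairwise correlation ranged from -0.33 to -0.20 with each library left out. It was -0.18 with genotype means removed and -0.16 with genotype and title number group means removed. The correlation of Sox9 and Sox5 was -0.016 with scaling by total counts only, and that of Sox9 and Comp was 0.048 as Spearman's rho, 0.027 with genotype means removed and 0.31 with both means removed. With each library left out, r ranged from -0.14 to 0.46 for Col2a1 and Sox5, from -0.42 to 0.42 for Sox9 and Sox5 and from -0.57 to 0.30 for Sox9 and Comp. The cause was not tested. With 4 mice a group and 27 to 261 counts for Col2a1, intervals remain wide.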

Other observations

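S100b, which encodes a calcium-binding protein of chondrocytes, Schwann cells and other cells, was listed here among Schwann and neural crest genes and was singled out after its values were seen. It had 38.9, 38.5, 39.2 and 42.2 CPM in CTR1 to CTR4 and 47.1, 48.4, 49.2 and 49.8 CPM in cKO1 to cKO4. The genotypes did not overlap, as was the case for 2.67% of genes tested. The log2 fold change of cKO over CTR was 0.29 with a standard error of 0.09 (unadjusted p = 0.0117 by edgeR's quasi-likelihood test across all genes, adjusted p = 1.00). The Schwann cell gene Sox10 had a count in 1 library, and the neural crest gene Foxd3 was listed at 0 in all 8.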
